A study of Mus musculus with 12 samples.

Results

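Transcripts of the amyloid precursor family (App, Aplp1 and Aplp2), the prion protein gene (Prnp) and the beta and gamma synucleins (Sncb and Sncg) were followed in mouse embryonic stem (ES) cells during neuronal differentiation. The members were chosen by symbol, as every probe set that the platform annotation gives to exactly 1 of these genes, and they comprised 6 of 18193 annotated genes and 15 of 45037 probe sets that are not controls. The choice was made with earlier results of these data known. Total RNA from HM1, a mouse ES cell line, and from CAG150, ES cells with expanded CAG repeats per the series title, was hybridised after 4 or 6 days of neuronal differentiation. Each of the 4 line-by-day groups had 3 arrays, 12 in all.

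The labels name no gene for the repeats; from what is known of the study they lie in the mouse huntingtin gene. Beyond the line and the day, the labels give no clone number, medium or agent. They do not say whether the number in the name CAG150 is a repeat length. Each kind of cell is 1 line, so a difference between lines cannot be told apart from a difference between 2 clones. Whether the 3 arrays of a group came from separate cultures is not stated either, and p-values therefore measure only the spread between these samples, which may be technical. The sample titles and free-text descriptions disagree for the day 6 arrays, with the HM1 ones described as day 4 and all of the day 6 samples described as replicate 1; days and replicate numbers were taken from the titles throughout.

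App is a membrane protein whose cleavage by beta- and gamma-secretase releases the amyloid beta peptide, while cleavage by an alpha-secretase such as ADAM10 prevents that release. Aplp1 and Aplp2 are its paralogs, cleaved by the same enzymes but lacking the amyloid beta stretch; Aplp1 is largely a neuronal protein, whereas App and Aplp2 are made in many tissues. Prnp encodes the cellular prion protein, a surface glycoprotein that is abundant in neurons and that misfolds in prion disease. The synucleins are small presynaptic and axonal proteins, of which gamma-synuclein is best known from sensory, motor and other projection neurons.

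RefSeq (GRCm38.p6) places App at chr16:84952666-85175255, Aplp1 at chr7:30434980-30445582, Aplp2 at chr9:31149557-31211848, Prnp at chr2:131909928-131938436, Sncb at chr13:54758860-54766622 and Sncg at chr14:34370274-34374669, all protein coding. The 250 bases before the RefSeq start are shown for 4 members that changed between days and for Aplp2, which did not pass any test, so that the promoters of genes with unlike profiles can be read side by side. Each is written 5′ to 3′ on the strand of its gene, ending at the base before the start. Capitals mark the GC box GGGCGG, the CCAAT box CCAAT, the TATA box TATAAA and the E-box CAGCTG, found on either strand with no overlap among the matches.
App, chr16:85173708-85173957, minus strand: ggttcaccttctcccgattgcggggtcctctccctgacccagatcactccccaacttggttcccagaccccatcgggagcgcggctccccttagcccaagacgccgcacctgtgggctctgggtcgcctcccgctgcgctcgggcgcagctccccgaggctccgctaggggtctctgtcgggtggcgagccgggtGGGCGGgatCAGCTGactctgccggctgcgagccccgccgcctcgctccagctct
Aplp1, chr7:30445583-30445832, minus strand: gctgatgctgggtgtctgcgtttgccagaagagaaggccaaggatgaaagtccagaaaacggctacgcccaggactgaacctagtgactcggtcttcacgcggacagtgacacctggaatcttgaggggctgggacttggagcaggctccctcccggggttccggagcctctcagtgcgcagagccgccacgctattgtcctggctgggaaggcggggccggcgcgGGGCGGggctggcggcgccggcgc
Aplp2, chr9:31211849-31212098, minus strand: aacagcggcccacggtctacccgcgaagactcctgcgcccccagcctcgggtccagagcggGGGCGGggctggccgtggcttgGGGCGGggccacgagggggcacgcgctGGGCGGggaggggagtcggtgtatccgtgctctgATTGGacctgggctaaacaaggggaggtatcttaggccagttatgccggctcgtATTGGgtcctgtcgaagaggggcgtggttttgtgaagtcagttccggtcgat
Prnp, chr2:131909678-131909927, plus strand: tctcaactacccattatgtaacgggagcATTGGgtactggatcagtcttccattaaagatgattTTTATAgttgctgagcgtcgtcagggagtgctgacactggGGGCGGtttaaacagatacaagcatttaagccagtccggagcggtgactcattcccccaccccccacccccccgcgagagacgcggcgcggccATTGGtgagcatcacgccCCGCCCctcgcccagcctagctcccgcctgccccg
Sncg, chr14:34374670-34374919, minus strand: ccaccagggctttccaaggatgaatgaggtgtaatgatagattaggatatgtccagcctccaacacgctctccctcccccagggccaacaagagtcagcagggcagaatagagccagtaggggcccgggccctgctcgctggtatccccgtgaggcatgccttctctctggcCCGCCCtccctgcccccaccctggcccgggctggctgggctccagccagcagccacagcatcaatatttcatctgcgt

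The GC box was present in all 6 members' windows, Sncb included, against 32.7% of 32851 windows of the same length. Aplp2 held 3 copies and Prnp 2, and the others held 1. CCAAT was found in the windows of Aplp2, Prnp and Sncb, 3 of 6, against 33.8% of all windows; the Prnp window was the only member's with TATAAA (12.4% of all) and the App window the only member's with CAGCTG (13% of all). The windows held 23 CpG dinucleotides in App, 22 in Aplp2, 20 in Aplp1, 17 in Prnp, 10 in Sncb and 7 in Sncg, where the median of all windows was 6 and the upper quartile 16. So the App, Aplp1, Aplp2 and Prnp windows lay above the upper quartile and the Sncg window near the median. App, which rose with day, and Aplp2, which passed no test, had nearly the same CpG count. A match is a description of the letters only, and for App and Sncb RefSeq also holds transcripts that start upstream of the start used here.

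Values are linear array intensities, deposited already scaled so that the 2% trimmed mean of each array is 150; no detection call comes with them, and the intensity of a probe set cannot be set against that of another gene. A gene was represented by its brightest probe set, and differences were tested with limma on log2(intensity + 16), over the 12280 genes above the 40th percentile of mean level (an intensity of about 11.9), with Benjamini-Hochberg adjustment and a threshold of 0.05. All fold changes and log2 differences are on that scale, which understates the change of dim genes. All 6 members and 13 of their 15 probe sets passed the filter; the exceptions were the App probe sets 1438373_at and 1438374_x_at, which read between 0.193 and 9.61 on all arrays. Array medians ran from 19.2 to 25.9. Correlations within groups were 0.9897 to 0.9925 and those between groups at most 0.9794, and no array was a copy of another.

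Markers of neurons were high at the later day in both lines. The summed intensity of 20 postmitotic neuron markers was 5849 to 6014 in HM1 and 4943 to 5316 in CAG150 at day 4, and 18083 to 20365 and 26183 to 26938 at day 6. The day 4 sums lean on Stmn2, which averaged 2108 in HM1 and 607 in CAG150. Gene by gene, 8 of the 20 were called higher and 3 lower in CAG150 at day 4 (median log2 difference 0.29). At day 6, 16 were higher and 0 lower (0.45). Over all genes 7.87% were higher and 7.92% lower at day 4, and 10.1% and 11.2% at day 6. Tubb3, a neuronal tubulin, averaged 530.5 and 604 at day 4 and 2064 and 3092 at day 6 in HM1 and CAG150. Cells of other kinds were marked as well: sums over 12 fibroblast and smooth muscle markers were 4879 to 5535 in HM1 and 1099 to 1157 in CAG150 at day 4, and 5806 to 7061 and 507 to 617 at day 6. Of the 10 that were tested, 4 rose and 4 fell with day in HM1 (median log2 difference -0.09), where 20.4% of all genes rose and 18.5% fell. The HM1 sum thus follows its brightest members. Sums over 13 pluripotency markers were 2089 to 2397 and 796 to 890.0 at day 4, and 2435 to 2787 and 1062 to 1132 at day 6. Their rise with day leans on Dppa5a, which averaged 651 and 175 at day 4 and 1352 and 511 at day 6. Of the 12 tested, 3 rose and 2 fell in HM1, and 5 rose and 2 fell in CAG150. In CAG150, 22.5% of all genes rose and 21.9% fell. Sums over 14 endoderm markers were 3681 to 3812 and 1978 to 2091 at day 4, and 4757 to 4941 and 1934 to 2064 at day 6. Sums over 12 neural progenitor markers were 10496 to 12581 and 12789 to 13264 at day 4, and 22262 to 24397 and 24332 to 25608 at day 6, and 11 astrocyte, oligodendrocyte and microglia markers summed to 227 to 351 on all arrays, with Gfap, Mog, Olig1, Olig2, Aif1 and Cx3cr1 below the filter. The labelled tissue, nervous system, therefore had its neuronal markers, while 6 of the 11 glial ones lay below the filter. The part of these shifts in the results that follow was not tested, and in these bulk samples a different number of cells of a type cannot be told apart from a different amount of RNA per cell. Htt was lower on the CAG150 arrays, with means of 105 against 152 for day 4 (log2 difference -0.48, adjusted p 0.016) and 65.1 against 132 for day 6 (-0.86, adjusted p 0.00027), although the probe sets of Htt differ in their response.

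**Figure D1:**
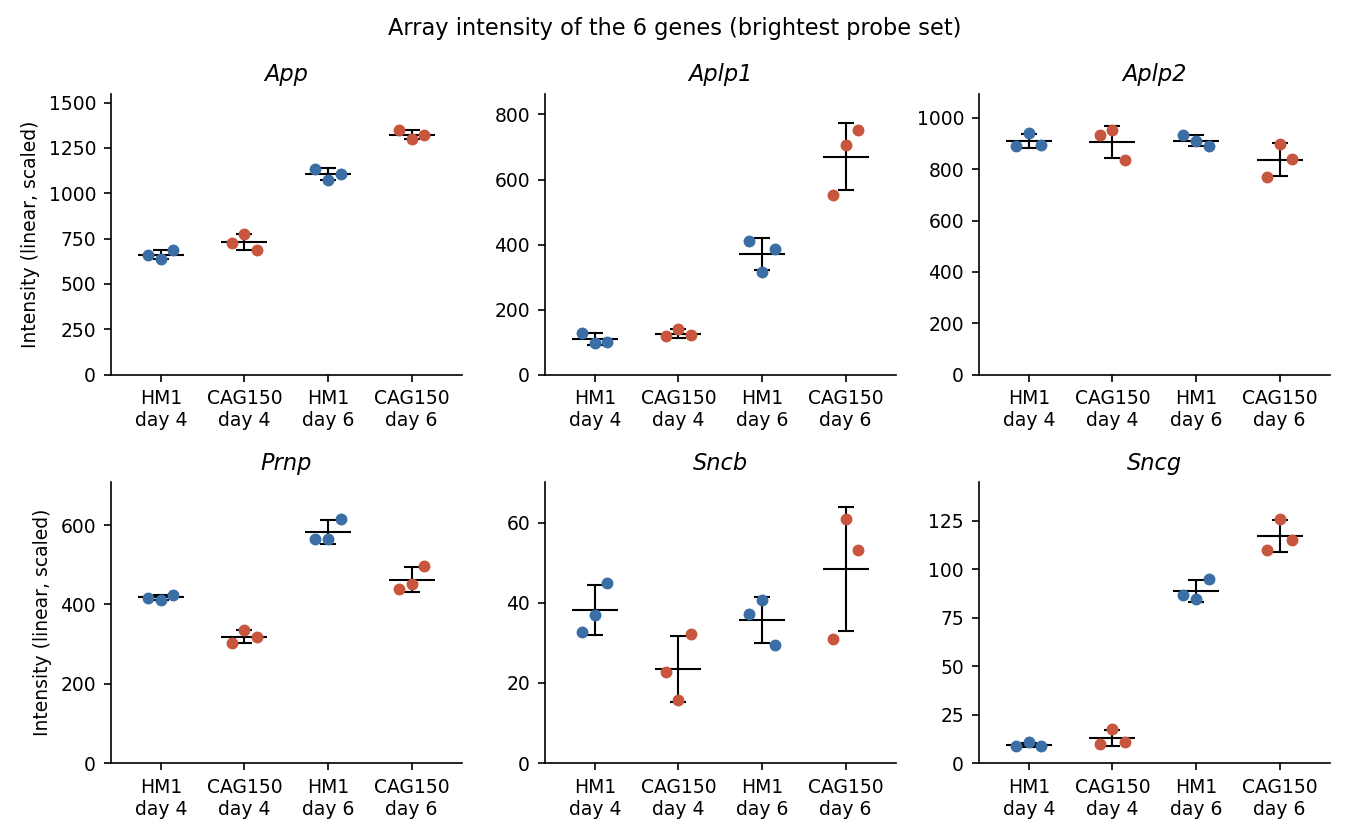
Linear intensity of the brightest probe set of each gene (y axes start at 0 and differ between panels) on the 3 arrays of each line and day; points are arrays, bars the mean and SD, HM1 in blue and CAG150 in red. App, Aplp1, Prnp and Sncg sit higher at day 6 than at day 4 in each line, Aplp2 stays between 771 and 952 on all arrays, and Prnp is lower in CAG150 than in HM1 at each day.

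From day 4 to day 6, App, Aplp1, Prnp and Sncg rose in both lines. In HM1 4 of the 6 members rose and 0 fell, where 20.4% of all genes tested rose and 18.5% fell (38.9% called). In CAG150 5 rose, the fifth being Sncb, and 0 fell, where 22.5% rose and 21.9% fell (44.4% called). The members' median log2 difference was 0.59 in HM1 and 0.77 in CAG150, against medians of all genes of about 0 (0.00 in each line). In each line, 4 members had groups that did not overlap with day 6 higher, and 0 with day 6 lower. Over all genes the days did not overlap for 49.1% in HM1 (24.8% higher and 24.3% lower) and for 55% in CAG150 (27.4% higher and 27.6% lower). Sncg is included in the members' counts and medians of both lines. Most of its day 4 arrays read below the intensity at the filter, so it was tested because of its day 6 arrays. That favours a rise of Sncg and limits what its part in these counts means. The 2 day comparisons use different arrays, but each shares arrays with both line comparisons. Because the members were chosen with earlier results of these data known, the shares of all genes, here and between the lines, are given for scale only. They do not test the members as a set.

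Between the lines, 1 member differed at day 4 and 4 at day 6. At day 4, Prnp was lower in CAG150 and no member was higher, where 7.92% of all genes were lower and 7.87% higher (15.8% called). At day 6, App, Aplp1 and Sncg were higher in CAG150 and Prnp was lower, where 10.1% of genes were higher and 11.2% lower (21.4% called). Groups that did not overlap were found at day 4 for 1 member higher and 2 lower (17.3% and 17.1% of all genes, 34.4% in all), and at day 6 for 3 higher and 1 lower (18.8% and 19.8%, 38.6% in all). The members' median log2 difference was 0.07 at day 4 and 0.27 at day 6, against 0.01 and 0.00 for all genes. In the test of whether the day change differed between lines, limma called 0 of the 6 members, with 2 at an unadjusted p under 0.05 (Aplp1 and Sncb), where 3.61% of genes were called and 16.5% had an unadjusted p under 0.05 (the called share was 1.58% with a more positive change in CAG150 and 2.03% with a more negative one). Of the members' 13 probe sets, fitted among all 27022, 1 was called at day 4 and 4 at day 6 (10.2% and 14.5% of all probe sets), 7 in the HM1 days and 8 in the CAG150 days (27.8% and 33.5%). The interaction called 0 of the 13, with 2 at an unadjusted p under 0.05 where 1.54% of all probe sets were called and 13% had an unadjusted p under 0.05.

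The share of higher calls over all genes depends on the scaling. With each array centred on its median, the calls split into 534 higher and 1165 lower at day 4 (967 and 973 as deposited), 811 and 1617 at day 6 (1243 and 1381), 1750 and 3085 for the HM1 days (2500 and 2273) and 1974 and 3474 for the CAG150 days (2760 and 2693). Relative to that centring the median of all genes moved to -0.11 in the HM1 day comparison, and no called member changed direction.

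**Figure D2:**
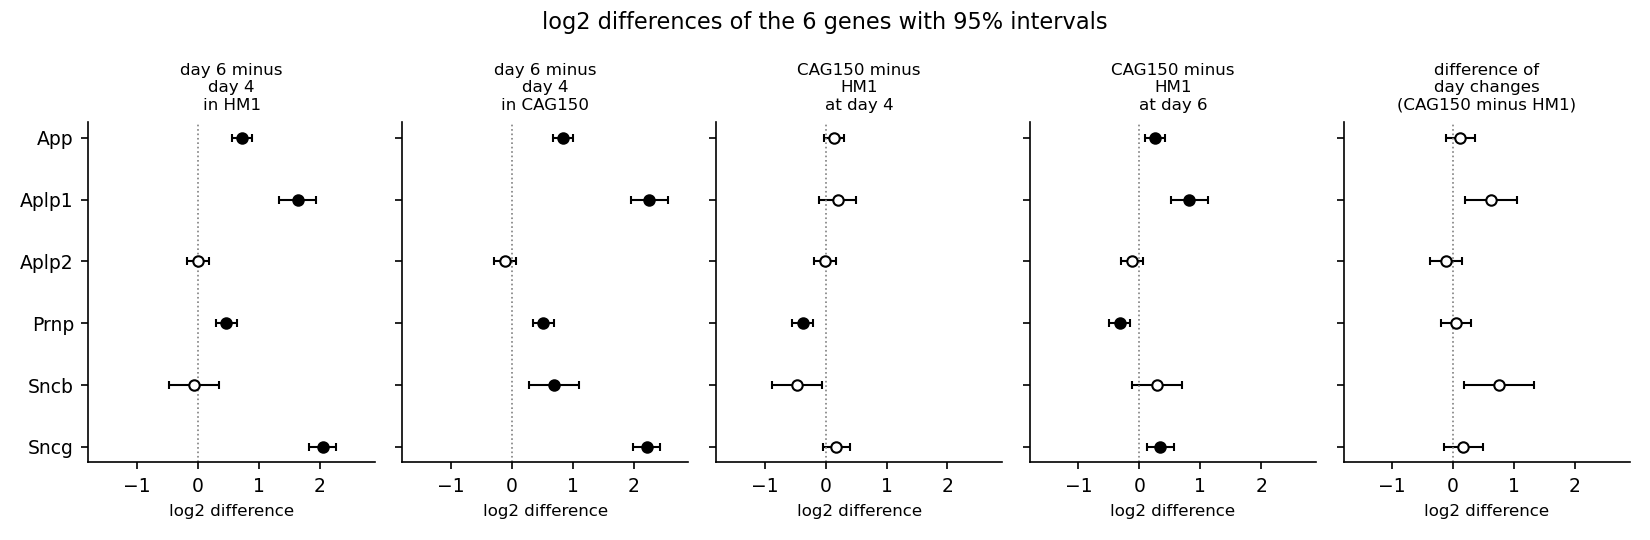
Differences of log2(intensity + 16) for the 6 genes in the 5 comparisons (x axis, log2 units), with 95% intervals from limma; filled points passed an adjusted p of 0.05. Aplp1 and Sncg have the largest day changes, between 1.64 and 2.26, the Aplp2 intervals all contain 0, and Prnp alone lies below 0 in both line comparisons among the filled points.

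App was bright in every group, rose with day in both lines, and was higher in CAG150 at day 6. Its brightest probe set, 1427442_a_at, read 658, 638 and 688 on the HM1 arrays at day 4 and 725, 777 and 688 on the CAG150 arrays. At day 6 it read 1136, 1071 and 1106 in HM1 and 1348, 1299.8 and 1320.4 in CAG150. Every day 6 array was above every day 4 array, and at day 6 every CAG150 array was above every HM1 array; at day 4 the CAG150 arrays were also all above the HM1 arrays, but the closest, at 688.045 and 687.996, were nearly equal. App rose 1.65-fold in HM1 (log2 difference 0.73 ± 0.08 SE, adjusted p 1.2e-05) and 1.80-fold in CAG150 (0.85 ± 0.08, adjusted p 2.3e-06). It was 1.20-fold higher in CAG150 at day 6 (0.26 ± 0.08, adjusted p 0.03), while the day 4 difference of 0.14 ± 0.08 did not pass (adjusted p 0.25). The day 6 call rests on every array: leaving out any 1 of the 6 day 6 arrays gave an adjusted p between 0.052 and 0.09, and centring on the median gave 0.20 (adjusted p 0.14).

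The dimmer App probe set 1420621_a_at followed the same order of groups. It read 218, 211 and 232 in HM1 and 279.6, 245 and 266 in CAG150 at day 4, then 525, 409 and 426 in HM1 and 593, 572 and 593 in CAG150 at day 6, with no overlap between any groups. In the fit over all 27022 probe sets its day changes were 0.98 in HM1 (adjusted p 2.8e-05) and 1.11 in CAG150 (adjusted p 7.1e-06). Its day 6 line difference of 0.37 ± 0.10 passed there (adjusted p 0.034), where that of 1427442_a_at did not (adjusted p 0.059). The day changes of App in the lines differed by 0.12 (95% interval -0.11 to 0.35, adjusted p 0.66).

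Aplp1, the neuronal paralog, changed most of the 3 family members. Probe set 1435857_s_at read 129, 96.6 and 100.1 in HM1 and 117, 141 and 121 in CAG150 at day 4. At day 6 it read 411, 317 and 387 in HM1 and 553, 706 and 752 in CAG150. The lines overlapped at day 4, and at day 6 all CAG150 arrays were above all HM1 arrays. Aplp1 rose 3.11-fold in HM1 (1.64 ± 0.14, adjusted p 2.2e-06) and 4.79-fold in CAG150 (2.26 ± 0.14, adjusted p 9.4e-08). At day 6 it was 1.77-fold higher in CAG150 (0.82 ± 0.14, adjusted p 0.0013), and at day 4 the difference was 0.20 ± 0.14 (adjusted p 0.38). The day changes differed by 0.62 (95% interval 0.19 to 1.05), which did not pass over all genes (adjusted p 0.13); with a pseudocount of 64 in place of 16 the difference was 0.60 and passed (adjusted p 0.026).

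The second Aplp1 probe set, 1416134_at, was dimmer and less separated. It read 33.4, 34.4 and 29.5 in HM1 and 34.7, 31.1 and 49.7 in CAG150 at day 4, and 126, 91.2 and 96.3 in HM1 and 121, 204 and 176 in CAG150 at day 6. Its lines overlapped at both days, through CAG150 replicate 1 at day 6. It rose with day in HM1 (1.30, adjusted p 0.00019) and in CAG150 (1.74, adjusted p 1.5e-05), and its day 6 line difference was 0.59 (adjusted p 0.045). The suffix of 1435857_s_at marks, in the manufacturer's naming, a probe set that can match transcripts of more than its own gene, and 1416134_at, which lacks that mark, was called in the same 3 comparisons.

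Aplp2, the widely made paralog, was bright in every group and did not pass the test in any comparison. Probe set 1423739_x_at read 890.2, 941 and 896 in HM1 and 934, 952 and 834 in CAG150 at day 4, and 933, 909 and 889 in HM1 and 771, 899 and 840.4 in CAG150 at day 6. Each group overlapped its neighbour in the order of means. The day difference was 0.00 in HM1 (95% interval -0.18 to 0.19, adjusted p 0.99) and -0.11 in CAG150 (-0.30 to 0.07, adjusted p 0.3). The line difference was -0.01 at day 4 (-0.19 to 0.18, adjusted p 0.98) and -0.12 at day 6 (-0.30 to 0.06, adjusted p 0.35). These intervals hold changes of Aplp2 up to 0.30 on the log2 scale, less than the App day changes, and their signs turn with the scaling or the probe set.

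The other 4 Aplp2 probe sets had the same outcome, with 0 called of 5 in each comparison of the probe set fit and only 1421888_x_at at day 4 at an unadjusted p under 0.05 (-0.95, p 0.013, adjusted p 0.088). Means of 1421887_a_at lay between 554.5 and 627 over the 4 groups, those of 1421889_a_at between 454 and 483, and those of 1432344_a_at between 221 and 266. On the dimmest, 1421888_x_at, the day 4 CAG150 arrays read 40.1, 5.57 and 53.0 against 68.2, 88.2 and 52.8 in HM1, so its difference leans on replicate 2 of CAG150. The probe set used for the gene carries the manufacturer's suffix for probes that can also bind other sequences.

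**Figure D3:**
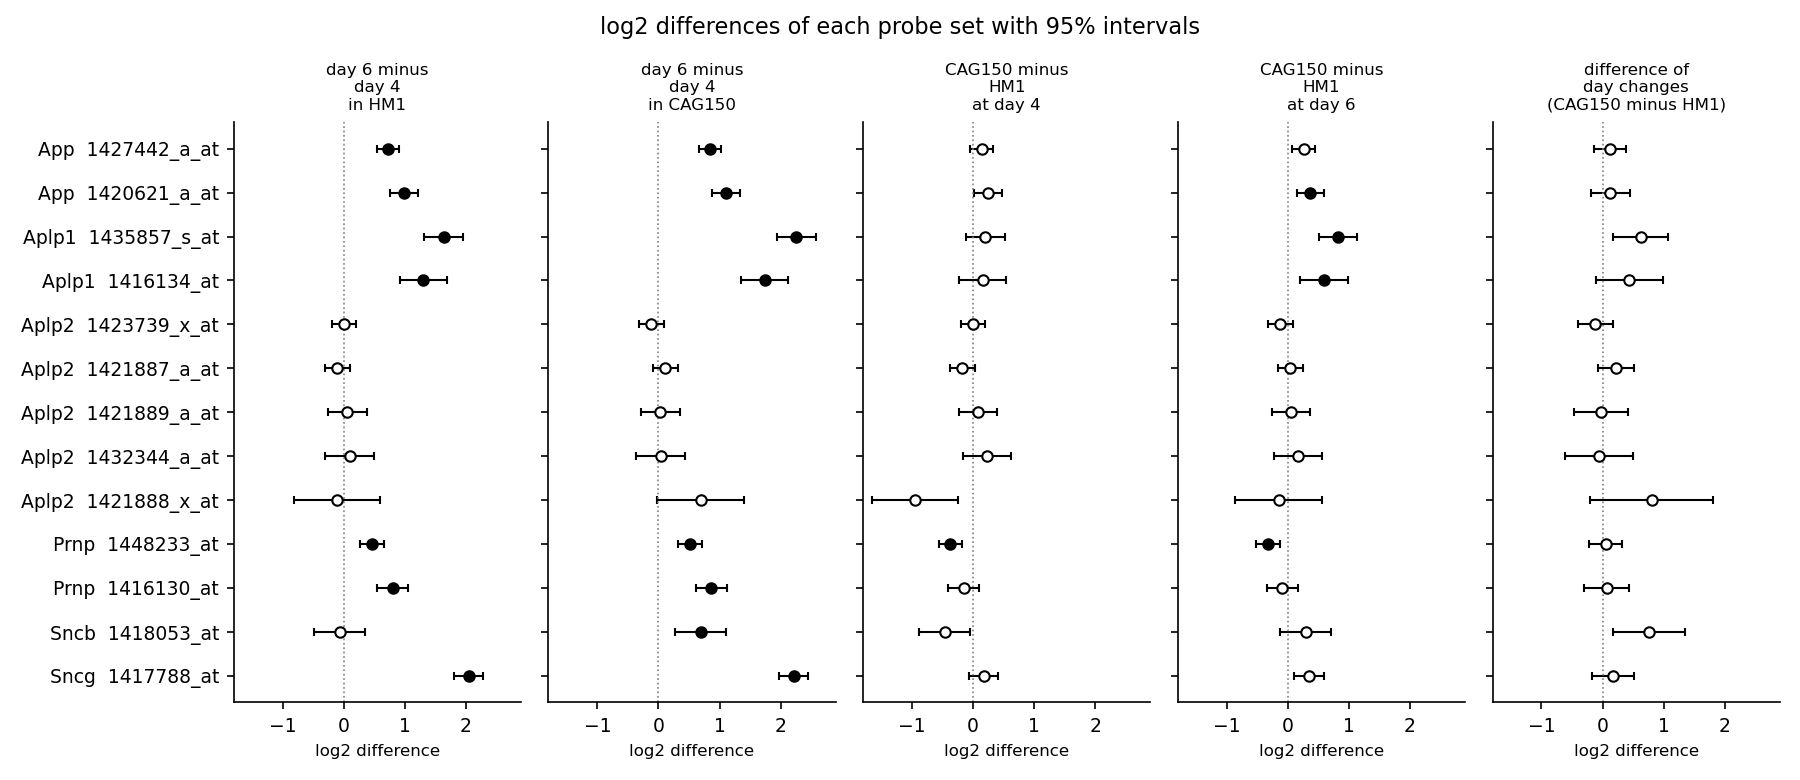
Differences of log2(intensity + 16) for the 13 probe sets of the 6 genes that passed the filter (x axis, log2 units), from the fit over 27022 probe sets, with 95% intervals; filled points passed an adjusted p of 0.05. Both probe sets of App, of Aplp1 and of Prnp rise with day in each line, none of the 5 of Aplp2 is filled, and in the line comparisons the Prnp probe set 1448233_at is filled where 1416130_at is not.

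Prnp was the member that was lower in CAG150, and it rose with day in both lines. Probe set 1448233_at read 417, 412 and 425 in HM1 and 303, 335 and 318 in CAG150 at day 4, and 565, 565 and 616 in HM1 and 438, 452 and 498 in CAG150 at day 6. The groups ran CAG150 day 4, HM1 day 4, CAG150 day 6, HM1 day 6 from low to high, with no overlap between neighbours. Prnp was 1.30-fold lower in CAG150 at day 4 (-0.38 ± 0.08, adjusted p 0.0075) and 1.25-fold lower at day 6 (-0.32 ± 0.08, adjusted p 0.013). It rose 1.38-fold in HM1 (0.46 ± 0.08, adjusted p 0.00064) and 1.43-fold in CAG150 (0.52 ± 0.08, adjusted p 0.00022). The day changes differed by 0.05 (95% interval -0.19 to 0.30, adjusted p 0.88).

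The line difference of Prnp depended on the probe set. On 1416130_at, which read 123, 91.9 and 119 in HM1 and 89.8, 91.7 and 112 in CAG150 at day 4, the lines overlapped (-0.16, adjusted p 0.44). At day 6 it read 212, 191 and 209.8 in HM1 and 198, 175 and 199.9 in CAG150, and the lines overlapped again (-0.09, adjusted p 0.66). Its day changes were 0.80 in HM1 (adjusted p 0.00036) and 0.87 in CAG150 (adjusted p 0.00014), so both probe sets rose with day. At day 6 the call was lost when the probe sets of each gene were averaged (-0.21, adjusted p 0.1), without HM1 replicate 3 (adjusted p 0.054) and without CAG150 replicate 1 (adjusted p 0.05); the day 4 call was kept when probe sets were averaged and without any 1 array. In the fit of probe sets the day 4 call of 1448233_at (adjusted p 0.018) was lost without HM1 replicate 3 or CAG150 replicate 1 of that day.

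Sncb, encoding beta-synuclein, was dim and its arrays scattered. Its only probe set, 1418053_at, read 32.7, 36.8 and 44.9 in HM1 and 22.8, 15.7 and 32.2 in CAG150 at day 4, and 37.2, 40.6 and 29.4 in HM1 and 31.1, 61.0 and 53.1 in CAG150 at day 6. At day 4 the lines did not overlap, yet the difference of -0.47 ± 0.19 did not pass (adjusted p 0.11). In CAG150 Sncb rose 1.62-fold with day (0.69 ± 0.19, adjusted p 0.0092) although the groups overlapped through replicate 1 at day 6. In HM1 the day difference was -0.07 (95% interval -0.47 to 0.34, adjusted p 0.81), and at day 6 the line difference was 0.29 ± 0.19 (adjusted p 0.31). The day changes differed by 0.76 (95% interval 0.18 to 1.33, adjusted p 0.16); without CAG150 replicate 1 at day 6 the difference was 0.97 and passed (adjusted p 0.045).

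Sncg, encoding gamma-synuclein, went from near the bottom of the intensity range to a clear level. Its only probe set, 1417788_at, read 8.82, 10.7 and 8.65 in HM1 and 9.82, 17.6 and 11.04 in CAG150 at day 4, all but CAG150 replicate 2 below the intensity of 11.9 at the filter. At day 6 it read 86.6, 84.6 and 95.2 in HM1 and 110.0, 126 and 115 in CAG150. The day 6 arrays of each line were all above its day 4 arrays, and at day 6 the CAG150 arrays were all above the HM1 arrays. With day 4 this dim, Sncg was tested because of its day 6 arrays, which limits what its p-values for the day change mean. Sncg rose by 2.04 ± 0.10 in HM1 (adjusted p 2.1e-08) and by 2.21 ± 0.10 in CAG150 (adjusted p 8.8e-09). The size depends on the pseudocount because day 4 is dim: with a pseudocount of 1 the rises were 3.11 and 3.13, and with 64 they were 1.06 and 1.24. At day 6 Sncg was 1.27-fold higher in CAG150 (0.34 ± 0.10, adjusted p 0.033), and at day 4 the difference was 0.17 ± 0.10 (adjusted p 0.29).

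The day 6 line difference of Sncg lay close to the threshold. It was 0.39 with an adjusted p of 0.15 at a pseudocount of 1, 0.29 with an adjusted p of 0.1 after median centring, and it did not pass in the probe set fit (adjusted p 0.056). Leaving out HM1 replicate 1 or 2, or CAG150 replicate 2 or 3, at day 6 gave adjusted p values of 0.085, 0.095, 0.1 and 0.073. Without any 1 of the 6 day 6 arrays the count of members called at day 6 went from 4 to 2, since App lost its call each time together with Sncg or Prnp. The calls of Aplp1 at day 6 and of App, Aplp1, Prnp and Sncg for the day changes did not depend on any 1 array.

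The profiles of the members over the 12 arrays were set against those of the 12279 other genes, each centred on its own mean. Closest to Aplp1 were Miat, a long noncoding RNA, and Tubb3, with root mean square differences of 0.16 and 0.17 log2 units. Closest to Sncg were Cntn2, an axonal adhesion protein, and again Tubb3, at 0.14 each. Cntn2 averaged 3.86 in HM1 and 5.40 in CAG150 at day 4, under the filter intensity of 11.9, while Tubb3 averaged 530 and 604. The Sncg rises in HM1 and CAG150 were 3.11 and 3.13 with a pseudocount of 1, and 1.06 and 1.24 with 64. The distances between profiles therefore depend on the pseudocount, and whether Cntn2 and Tubb3 stay closest to Sncg at another was not tested. App lay nearest to Tusc1 and 1110032A03Rik, at 0.08 each, and Prnp nearest to Pnrc1 and Plekhg2, at 0.06 and 0.07. Sncb lay nearest to Pld3 and Atp13a2 (0.15 and 0.18) and Aplp2 to Taf5 and Calu (0.03 and 0.06). The members' own root mean square deviations were 0.41 for App, 1.03 for Aplp1, 0.08 for Aplp2, 0.31 for Prnp, 0.33 for Sncb and 1.08 for Sncg. Beside their own deviations, the matches of Sncb and Aplp2 were the loosest. The points share the 12 arrays, and a gene that varies little finds close neighbours easily.

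Genes that process, bind or clear the proteins were read from lists that do not contain the members. The shares of all genes tested that were called are given again beside the counts, and a count near them says nothing particular about a list. Of 17 genes for APP and APLP processing 13 were tested; 6 rose and 0 fell from day 4 to day 6 in HM1, and 6 rose and 2 fell in CAG150, with median log2 differences of 0.29 and 0.13. The list's share called was 46.2% in HM1 and 61.5% in CAG150, against 38.9% and 44.4% of all genes. Adam10, the main alpha-secretase, rose by 0.81 in HM1 (adjusted p 9.6e-06) and 0.39 in CAG150 (adjusted p 0.002). Bace1, the beta-secretase, rose by 0.82 (adjusted p 5e-04) and 0.60 (adjusted p 0.0035). Aph1b, a gamma-secretase subunit, rose by 0.62 (adjusted p 0.0014) and 0.84 (adjusted p 1e-04), while Psen2, a catalytic subunit, fell by 0.76 in CAG150 (adjusted p 0.00038) and had -0.25 in HM1 (adjusted p 0.13). Reck, a membrane-anchored protease inhibitor, rose by 0.41 (adjusted p 0.006) and 0.28 (adjusted p 0.039), and at day 6 it was lower in CAG150 by -0.37 (adjusted p 0.02). The Bace1 rise in CAG150 was 0.25 and did not pass when probe sets were averaged (adjusted p 0.056).

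Between lines, 2 processing genes were higher and 1 lower in CAG150 at day 4, and 1 was higher and 3 lower at day 6 (23.1% and 30.8% called, against 15.8% and 21.4% of all genes). The medians were 0.04 and -0.07 and turned sign under other processing. Timp3, an inhibitor of metalloproteinases including ADAM enzymes, was lower in CAG150 by -1.15 at day 4 (adjusted p 0.00011) and by -1.70 at day 6 (adjusted p 3e-06). Adam9, another ADAM protease, was higher by 0.44 (adjusted p 0.0018) and 0.27 (adjusted p 0.026). Adam10 was higher by 0.30 at day 4 (adjusted p 0.027, and 0.15 when probe sets were averaged).

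Among 29 of 32 adaptor and trafficking genes that were tested, 17 rose and 4 fell with day in HM1, and 14 rose and 6 fell in CAG150, with medians of 0.33 and 0.24. That is 72.4% and 69% called, against 38.9% and 44.4% of all genes. Klc1, the kinesin light chain that can link APP to axonal transport, averaged 321 and 328 at day 4 and 1067 and 1449.6 at day 6 in HM1 and CAG150. It rose by 1.69 (adjusted p 4.5e-08) and 2.09 (adjusted p 5.4e-09), and at day 6 it was higher in CAG150 by 0.43 (adjusted p 0.0056). Apba2, a neuronal APP adaptor, rose by 0.83 (adjusted p 0.013) and 0.74 (adjusted p 0.021). Sorl1, a sorting receptor for APP, fell by 0.67 (adjusted p 0.0029) and 0.82 (adjusted p 0.00055), and Itm2a, a membrane protein of the BRI family, fell by 0.79 (adjusted p 1.4e-05) and 0.80 (adjusted p 9e-06). Shc1, a signalling adaptor, fell by 0.92 (adjusted p 0.00011) and 0.83 (adjusted p 0.00019). Between lines 3 were higher and 4 lower in CAG150 at each day (24.1% called, against 15.8% and 21.4% of all genes), with medians of -0.01 and 0.04 whose signs turned under other processing. Appbp2, which binds the APP tail, was higher by 0.54 (adjusted p 0.0089) and 0.42 (adjusted p 0.026), and Dab2, an endocytic adaptor that is also among the endoderm markers, was lower by -0.57 (adjusted p 0.014) and -1.17 (adjusted p 7.4e-05).

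Among the genes for amyloid beta clearance, 11 of 16 listed were tested; 1 rose and 5 fell in HM1, 2 rose and 5 fell in CAG150, 0 were higher and 4 lower in CAG150 at day 4, and 1 was higher and 5 lower at day 6. Over all genes 20.4% rose and 18.5% fell in HM1, 22.5% and 21.9% in CAG150, 7.87% were higher and 7.92% lower at day 4, and 10.1% and 11.2% at day 6. The median was -0.28 and -0.35 for the days and -0.14 and -0.34 for the lines, although the day 4 line median was 0.07 when probe sets were averaged. Mme, encoding neprilysin, which degrades amyloid beta, had a mean of 326 in HM1 against 54.8 in CAG150 on the day 4 arrays (-2.27, adjusted p 3.3e-08) and 464 and 93.8 at day 6 (-2.13, adjusted p 3.2e-08). Apoe, a lipid carrier that is also among the endoderm markers, had means of 633 and 232 for the lines at day 4 (-1.39, adjusted p 4.9e-07) and 338 and 62.9 at day 6 (-2.17, adjusted p 1.3e-08). Clu, the extracellular chaperone clusterin, was lower by -0.86 (adjusted p 0.0043) and -0.87 (adjusted p 0.0029). With day, the peptidase gene Ece2 fell by 0.78 (adjusted p 0.00015) and 1.03 (adjusted p 1.1e-05), and the matrix metalloproteinase gene Mmp2 by 1.04 (adjusted p 1.9e-05) and 1.32 (adjusted p 1.9e-06). Mme went the other way and rose with day, by 0.50 in HM1 (adjusted p 0.002) and 0.63 in CAG150 (adjusted p 0.00026). The fibroblast, smooth muscle, endoderm and pluripotency marker sums given above were lower in CAG150 as well.

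**Figure D4:**
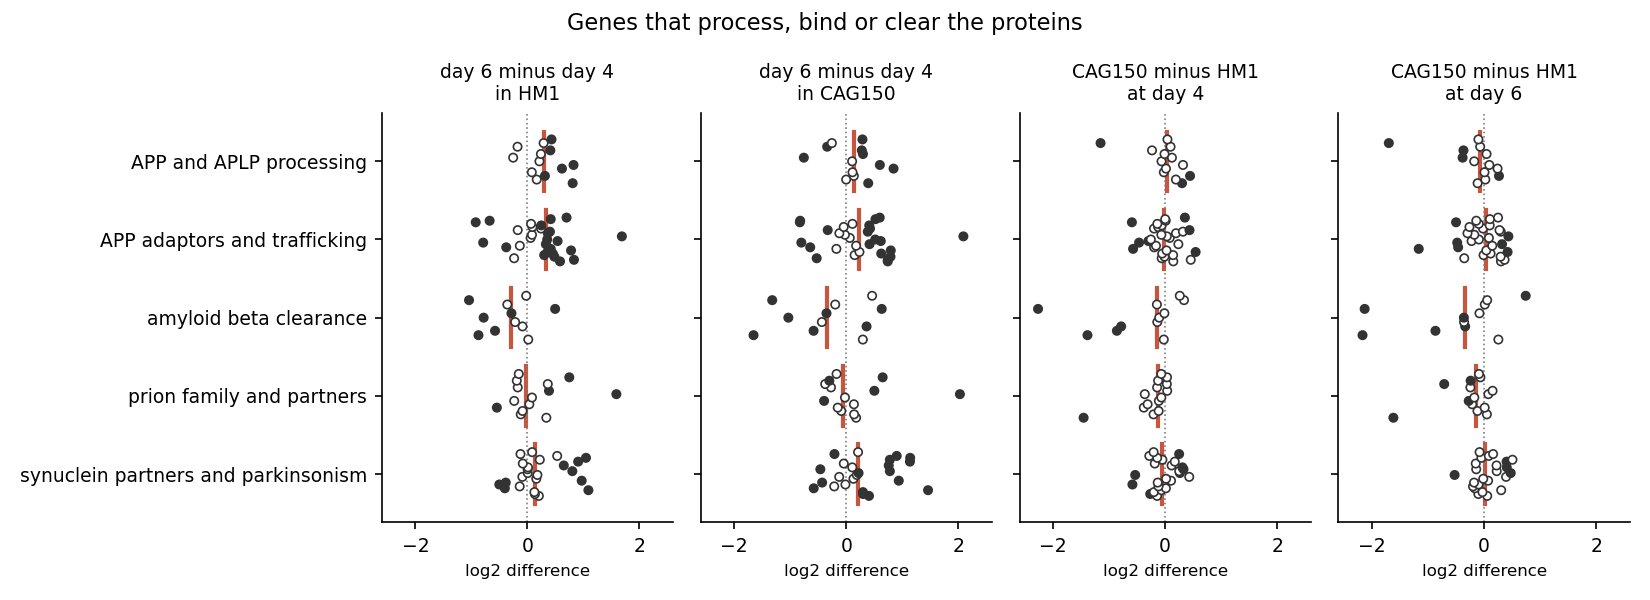
Log2 difference of each tested gene (points; filled where the adjusted p passed 0.05) in 5 lists of genes that process, bind or clear the proteins, with the list median as a red bar, for the day and line comparisons (x axis, log2 units). Medians of the processing and adaptor lists lie above 0 for the days, at 0.29 and 0.33 in HM1, and those of the clearance list lie below 0 in all 4 panels.

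Of 19 genes for the prion protein's family and partners 14 were tested; 3 rose and 1 fell in HM1, 3 rose and 2 fell in CAG150, 0 were higher and 1 lower in CAG150 at day 4, and 0 were higher and 4 lower at day 6. The shares called were 28.6% and 35.7% for the days, below the 38.9% and 44.4% of all genes, and 7.14% and 28.6% for the lines, against 15.8% and 21.4%. The medians were -0.03 and -0.06 for the days, reaching 0.04 and 0.06 under other processing, and -0.12 and -0.15 for the lines. Ncam1, a neural adhesion molecule that binds the prion protein and is also among the neuron markers, rose by 1.59 (adjusted p 7.3e-07) and 2.03 (adjusted p 6.1e-08). Slc39a6, a zinc transporter of a family thought to be related to the prion genes, rose by 0.75 (adjusted p 2.6e-05) and 0.65 (adjusted p 6.4e-05). Adgrg6, a receptor activated by the prion protein on Schwann cells, averaged 42.7 in HM1 and 6.14 in CAG150 at day 4 and 58.2 and 8.30 at day 6. It was lower in CAG150 at both days (adjusted p 0.00017 and 5.2e-05), but the CAG150 means lie under the intensity at the filter, so the gene was tested because of HM1 and the size of its difference depends on the pseudocount. Sdc1, a heparan sulfate proteoglycan, was lower by -0.71 at day 6 (adjusted p 0.006) and Hspd1, a mitochondrial chaperone, by -0.27 (adjusted p 0.046). Rnf5, a ubiquitin ligase, rose by 0.39 (adjusted p 0.017) and 0.50 (adjusted p 0.0032) with day, and Cav1, the caveolar coat protein, fell by 0.54 in HM1 (adjusted p 0.0056).

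Of 30 names for synuclein partners and parkinsonism genes, older aliases included, 24 were tested. With day, 6 rose and 3 fell in HM1, and 12 rose and 4 fell in CAG150, with medians of 0.13 and 0.21. The share called in HM1, 37.5%, is near the 38.9% of all genes, and that in CAG150 was 66.7% against 44.4%. Uchl1, a neuronal ubiquitin hydrolase, rose by 1.05 (adjusted p 5.5e-06) and 1.14 (adjusted p 1.9e-06). Dnajc6, the neuronal auxilin that uncoats clathrin vesicles, rose by 1.09 (adjusted p 0.00018) and 1.46 (adjusted p 1.3e-05), and Synj1, the vesicle phosphatase synaptojanin, by 0.91 (adjusted p 4.9e-06) and 1.14 (adjusted p 4.8e-07). Pink1, a mitochondrial kinase, rose by 0.97 (adjusted p 1.3e-05) and 0.94 (adjusted p 1.4e-05). Between lines, 4 were higher and 3 lower in CAG150 at day 4, and 3 higher and 1 lower at day 6 (29.2% and 16.7% called, against 15.8% and 21.4% of all genes). The medians were -0.06 and 0.02, the latter turning sign under other processing. Plk2, a kinase that phosphorylates synucleins, was lower by -0.54 (adjusted p 0.01) and -0.53 (adjusted p 0.008), and Siah1a, a ubiquitin ligase, was higher by 0.31 (adjusted p 0.023) and 0.40 (adjusted p 0.0038). Rab1a, a GTPase of transport from the endoplasmic reticulum to the Golgi, was higher by 0.26 (adjusted p 0.03) and 0.48 (adjusted p 0.00067). At day 4 Lrrk2, a kinase, was lower by -0.58 (adjusted p 0.002) and Septin4, a cytoskeletal GTPase, higher by 0.33 (adjusted p 0.022).

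In the test of the difference between the day changes, limma called Apoe alone among these 5 lists. Counts at an unadjusted p under 0.05 were 3 of 13 for processing, 3 of 29 for adaptors, 2 of 11 for clearance, 2 of 14 for prion partners and 2 of 24 for synuclein partners, where 16.5% of all genes tested were at that level.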

How the data were processed

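Total RNA of HM1 and CAG150 ES cells at 4 or 6 days of neuronal differentiation was measured on 12 arrays, 3 per group, grouped by sample title. The authors deposited linear intensities of 45101 probe sets, 64 of them controls; their software is not stated in the labels or headers, and the deposited values show a 2% trimmed mean of 150 on every array. Of the probe sets, 34945 had 1 symbol, 932 several and 9160 none in the platform annotation. From these, log2(intensity + 16) was computed, the brightest probe set kept per gene and genes at or below the 40th percentile of mean level dropped (12280 kept; 27022 for a fit of probe sets). limma 3.58.1 in R 4.3.3 fitted the 4 groups (8 residual degrees of freedom) with Benjamini-Hochberg adjustment over all genes, after checks on simulated data. The arrays' small number limits the precision. The genes named were the 6 members, up to 3 genes with the largest called differences per comparison in each of the 5 lists of related genes, 2 nearest profiles per member, Tubb3 and Htt for cell identity and line, and Acta2 and Pou5f1. Marker lists are given by their sums, with Stmn2 and Dppa5a named for their weight in a sum. Motifs were searched with Python 3.11.15 in RefSeq promoters (GRCm38.p6). Alternatives were other scalings, filters, pseudocounts, probe set rules, fits and leaving out each array. The members and lists were chosen with earlier results of these data known.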

Additional observations from a re-analysis of the deposited data

Results flagged for a closer look

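The change from day 4 to day 6 differed between lines for 2 of the genes named. Apoe went from 633 ± 34.2 (SD, n = 3) to 338 ± 8.93 in HM1 and from 232 ± 16.5 to 62.9 ± 6.75 in CAG150, and limma's interaction term was -0.78 (adjusted p 0.0042). Acta2, a smooth muscle actin used as a marker of cells other than neurons, went from 1608 ± 219 to 2890 ± 221 in HM1 and from 249 ± 27.0 to 162 ± 9.60 in CAG150 (interaction -1.42, adjusted p 0.00044). In each case every CAG150 array was below every HM1 array of the same day. Pou5f1, a pluripotency factor, averaged 341 ± 124 in HM1 and 105 ± 21.0 in CAG150 at day 4. Other marker genes were not included in this count. Of those, Stmn2 went from a mean of 2108 to 2064 in HM1 and from 607 to 2691 in CAG150. Among the 20 neuron markers, the interaction called 4 with a more positive change in CAG150 and 0 with a more negative one (1.58% and 2.03% of all genes).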

How the results depend on the processing

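Of the members' values recomputed without 1 array, 340 kept their direction and side of the threshold, 7 changed direction, 12 lost a call and 1 gained one. Many of the values kept are of comparisons without the array left out, where the log2 difference cannot change. Under other processing 268 kept both, 5 changed direction, 10 lost a call and 1 gained one. On another probe set of the same gene 20 kept both, 13 changed direction, all of them in Aplp2, and 2 lost a call. The count of members called at day 6 was 4 and became 2 after median centring, without a filter and with the mean of probe sets (2 to 4 without 1 array). For the CAG150 days it was 5, and 3 with a filter at the 60th percentile, which removes Sncb and Sncg. For the interaction it was 0, and 1 with a pseudocount of 64 (0 to 1 without 1 array). Probe sets of the members called at day 4 numbered 1, and 2 with a pseudocount of 64, 0 in a fit of the compared groups alone and 2 with an intensity trend (0 to 1 without 1 array); at day 6 they numbered 4, and 2 after median centring, 1 without a filter and 1 in a fit of the compared groups alone (1 to 5 without 1 array). Genes called for the interaction numbered 443, 295 without a filter and 270 to 362 without 1 array. App at day 6 had an adjusted p of 0.058 without a filter and 0.058 in a fit of the compared groups alone, and with the mean of probe sets it was 0.16 (adjusted p 0.21). Aplp2, never called, changed sign at day 4 with quantile normalization (0.0048), without HM1 replicate 2 or CAG150 replicate 3 (-0.041 to 0.052 without 1 array) and on 1421889_a_at (0.077) and 1432344_a_at (0.23); at day 6 on 1421887_a_at (0.043), 1421889_a_at (0.049) and 1432344_a_at (0.17). For the CAG150 days it did so with the mean of probe sets (0.15) and on 1421887_a_at (0.11), 1421889_a_at (0.032), 1432344_a_at (0.035) and 1421888_x_at (0.69). For the HM1 days it did so with median centring (-0.10), the mean of probe sets (-0.012), without HM1 day 4 replicate 1 or 3 or day 6 replicate 1 (-0.015 to 0.027 without 1 array), and on 1421887_a_at and 1421888_x_at (-0.11 each). Its interaction turned with the mean of probe sets (0.16) and on 1421887_a_at (0.22) and 1421888_x_at (0.80). Sncb in the HM1 days turned without day 4 replicate 3 or day 6 replicate 3 (-0.14 to 0.026 without 1 array), and Htt in the CAG150 days with the mean of probe sets (0.032). The cause was not tested. Replicate numbers did not pair the arrays: 2 of 18 correlations of same-numbered deviations were over 0.1 (range -0.133 to 0.122) and 6 of 12 arrays correlated best with their own number. With the replicate number as a block, calls were 934 higher and 933 lower at day 4 and 1195 and 1352 at day 6, and no member's call changed. Dim probe sets limit what can be seen for Sncb at both days and for Sncg at day 4.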
